A study of Mus musculus with 2 samples.

Results

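The mouse Cyp2d genes encode cytochrome P450 monooxygenases of subfamily 2D. The 8 genes described here, Cyp2d9, Cyp2d10, Cyp2d11, Cyp2d12, Cyp2d22, Cyp2d26, Cyp2d34 and Cyp2d40, were taken by gene symbol from 22180 genes with a probe set assigned to them alone on a whole-transcript array of mouse kidney. Each of the 8 had 1 probe set with its symbol and no other, and 0 probe sets shared a Cyp2d symbol of the list with another gene. The family was chosen because Cyp2d9 and Cyp2d22 differed in opposite directions between the genotypes, so the differences between genotypes below are descriptions of a known choice and support nothing by themselves.

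Kidneys came from male Iah1-KO mice, in which Iah1 was knocked out systemically, and from male Iah1-WT mice. Iah1 encodes a homolog of an esterase that hydrolyses isoamyl acetate. From the age of 6 weeks both groups were switched from chow to a high-fat diet, which lasted 12 weeks, and food was withdrawn 4 hours before death. RNA of 3 mice was pooled for 1 array per genotype, so neither the spread between mice nor a replicate error is known, and no test between genotypes was possible. The knockout acts in the whole animal, and the sources used here state neither the strain nor the part of Iah1 removed.

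P450 enzymes of this family sit in the membrane of the endoplasmic reticulum, bind haem and insert an oxygen atom into small lipophilic molecules, using electrons passed on by P450 reductase and cytochrome b5. The 2D enzymes are best known from the liver, where they oxidise many basic drugs. In mice the subfamily has been multiplied by gene duplication. Cyp2d9 is known as a testosterone hydroxylase that male mouse liver makes in far larger amounts than female liver, and Cyp2d22 is often studied as the mouse counterpart of the human debrisoquine hydroxylase. In kidney, P450 enzymes of drug and steroid metabolism are expressed mainly by the proximal tubule.

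The genes lie together on mouse chromosome 15 in RefSeq's annotation of GRCm38.p6. The cluster holds 18 annotated Cyp2d genes, of which the 8 listed here are the protein-coding ones and the other 10 are pseudogenes. Cyp2d22 stands at one end and Cyp2d26 at the other, and Cyp2d11, Cyp2d10, Cyp2d9, Cyp2d12, Cyp2d34 and Cyp2d40 follow Cyp2d22 in that order. Cyp2d9 and Cyp2d22 are thus separated by Cyp2d11 and Cyp2d10.

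The sequence before the annotated start is shown for the 5 members with an entry in the RefSeq promoter table (GRCm38.p6), because it shows how close some paralogs are at their starts. Each line gives the 250 bases before the start, 5′ to 3′ on the gene's strand. The windows are chr15:82452127-82452376 on the plus strand for Cyp2d9, and on the minus strand chr15:82407195-82407444 for Cyp2d10, chr15:82394023-82394272 for Cyp2d11, chr15:82764123-82764372 for Cyp2d40 and chr15:82794246-82794495 for Cyp2d26. Capitals mark matches on either strand to CAAAGNNCA, a core of the sites bound by HNF4 factors, to TATAAA, the TATA box, and to TTCCGG, a core bound by ETS factors.
Cyp2d9: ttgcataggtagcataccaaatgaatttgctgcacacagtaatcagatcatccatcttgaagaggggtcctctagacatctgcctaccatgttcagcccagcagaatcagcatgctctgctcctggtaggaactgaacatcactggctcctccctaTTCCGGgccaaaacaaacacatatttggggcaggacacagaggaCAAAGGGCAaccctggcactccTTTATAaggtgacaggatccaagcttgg
Cyp2d10: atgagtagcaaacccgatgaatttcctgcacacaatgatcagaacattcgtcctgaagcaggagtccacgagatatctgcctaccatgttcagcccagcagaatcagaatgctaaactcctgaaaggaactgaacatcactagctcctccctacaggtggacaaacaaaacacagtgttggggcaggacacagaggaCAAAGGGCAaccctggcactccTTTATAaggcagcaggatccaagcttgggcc
Cyp2d11: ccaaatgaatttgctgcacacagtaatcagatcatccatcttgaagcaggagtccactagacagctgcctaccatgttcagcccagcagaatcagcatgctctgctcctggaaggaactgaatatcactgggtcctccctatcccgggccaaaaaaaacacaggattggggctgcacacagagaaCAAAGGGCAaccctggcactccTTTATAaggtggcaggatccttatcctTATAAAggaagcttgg
Cyp2d40: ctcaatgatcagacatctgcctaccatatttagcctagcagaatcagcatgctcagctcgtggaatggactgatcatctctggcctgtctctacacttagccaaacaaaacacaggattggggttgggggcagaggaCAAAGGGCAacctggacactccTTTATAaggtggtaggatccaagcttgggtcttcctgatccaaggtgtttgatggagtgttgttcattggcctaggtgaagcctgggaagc
Cyp2d26: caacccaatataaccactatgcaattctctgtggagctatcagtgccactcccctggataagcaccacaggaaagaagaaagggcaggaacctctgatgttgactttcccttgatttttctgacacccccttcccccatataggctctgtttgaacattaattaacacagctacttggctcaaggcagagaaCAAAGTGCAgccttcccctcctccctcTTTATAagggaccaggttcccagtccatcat
Cyp2d12, Cyp2d22 and Cyp2d34 are the other members.

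The windows of Cyp2d9, Cyp2d10 and Cyp2d11 were close relatives. In a global alignment of the 250 bases, identity was counted over all columns of the alignment, gaps included. Cyp2d9 was identical to Cyp2d10 at 82.8% (212 of 256 columns) and to Cyp2d11 at 82.3% (219 of 266). Cyp2d10 and Cyp2d11 were identical to each other at 76.7% (204 of 266). Cyp2d26 was identical to Cyp2d9 at 53.6% (155 of 289), and Cyp2d40 to Cyp2d9 at 49.4% (155 of 314). Gaps lower these values, so they are not shares of the paired bases. Windows were cut at each annotated start, and in Cyp2d40 the letters shared with the others lie further from that start.

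All 5 windows held CAAAGNNCA, at -50 to -42 from the start in Cyp2d9, -53 to -45 in Cyp2d10, -65 to -57 in Cyp2d11, -58 to -50 in Cyp2d26 and -113 to -105 in Cyp2d40. Of 32851 promoter windows of the same length in the table, 5.49% held it on either strand. TATAAA was also in 5 of 5 on either strand, against 12.4% of all windows. On the gene's strand it was in Cyp2d11 only, at -16 to -11. The other matches read TTTATA on the gene's strand, at -28 to -23 in Cyp2d9 and -31 to -26 in Cyp2d10 and Cyp2d26. In Cyp2d11 TTTATA was at -43 to -38 and in Cyp2d40 at -91 to -86. TTCCGG was in 1 of the 5, Cyp2d9, at -94 to -89, and in 12.0% of all windows. In mouse liver, an ETS-type factor, GABP, is known to bind the Cyp2d9 promoter. CAAAGNNCA and TTCCGG were searched after the sequences had been seen, so their counts in these windows test nothing. The windows of Cyp2d9, Cyp2d10 and Cyp2d11 are also close relatives, so the 5 windows are not independent. Matches to CAAAGNNCA and TTCCGG do not overlap each other or TATAAA.

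Other motifs were in some windows or in none. TTCNNNGAA, the core shared by STAT5 and BCL6 sites, was in 0 of 5 windows and in 7.02% of all. AGGTCA, a nuclear receptor repeat unit, was in 0 of 5 and in 14.0% of all. TGTTCT, a steroid receptor repeat unit, was in 3 of 5 (Cyp2d10, Cyp2d11 and Cyp2d26) and in 16.1% of all, and its match in Cyp2d11 and Cyp2d26 shares bases with CAAAGNNCA. CCAAT was in 3 of 5 (Cyp2d11, Cyp2d26 and Cyp2d40) and in 33.8% of all. The palindromic HNF1 site and the C/EBP palindrome TTGCGCAA were in 0 of 5, and in 0.0091% and 0.164% of all windows. A match to letters is a description of the sequence, and a window without a match says nothing about a factor.

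Expression is given as log2 RMA values, the scale on which the arrays were deposited. RMA subtracts a background estimate, forces both arrays to one distribution and summarises the probes of a set. A probe set's value also depends on its probes, so values of different genes do not rank their transcripts by amount. The expression floor was set at log2 6. Of 22180 genes, 7671 reached it in at least 1 array. The Iah1-KO and Iah1-WT arrays had medians over all probe sets of 4.03 and 4.05. Iah1 itself was at 3.60 in the Iah1-KO pool and 9.09 in the Iah1-WT pool.

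Of the 8 genes, 4 reached the floor and 4 did not. Cyp2d9, Cyp2d12, Cyp2d22 and Cyp2d26 were above it in both arrays. Cyp2d10, Cyp2d11, Cyp2d34 and Cyp2d40 lay below the array's median in both arrays, at no more than 3.79 in the Iah1-KO and 3.90 in the Iah1-WT pool, so none of them is shown to be above background.

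**Figure D1:**
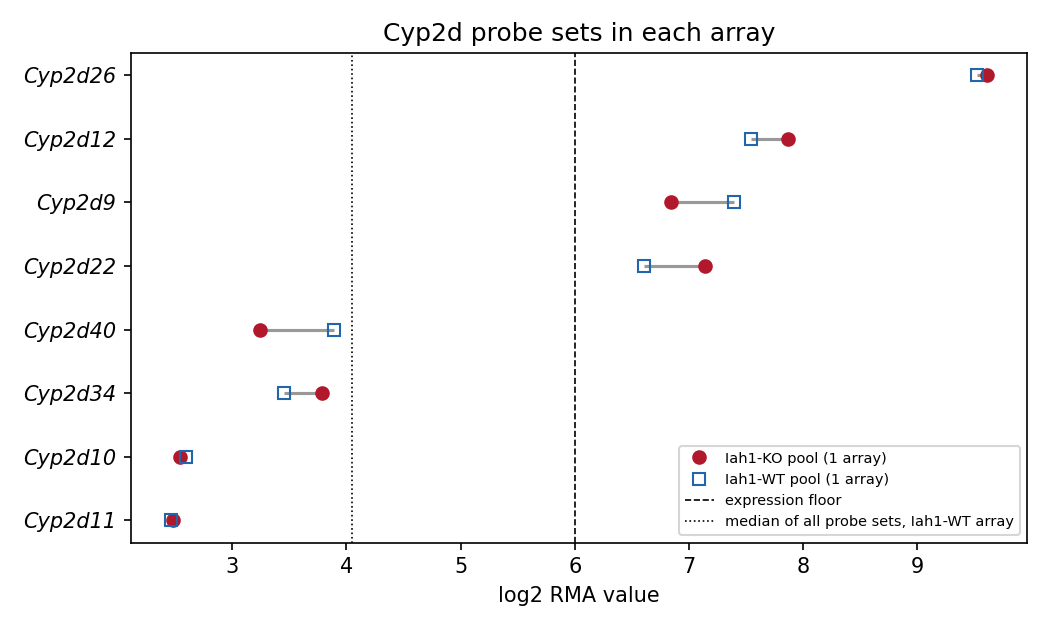
Log2 RMA value (x axis) of each of the 8 Cyp2d genes (y axis) in the Iah1-KO array (filled circles) and the Iah1-WT array (open squares), with the expression floor of log2 6 (dashed) and the median of all probe sets on the Iah1-WT array, 4.05 (dotted). Cyp2d9, Cyp2d12, Cyp2d22 and Cyp2d26 lie right of the floor and the others left of the median. The Iah1-KO value is the lower one for Cyp2d9 and Cyp2d40 and the higher one for Cyp2d12, Cyp2d22 and Cyp2d34.

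Cyp2d9, the testosterone hydroxylase, was at a log2 value of 6.84 in the Iah1-KO pool and 7.40 in the Iah1-WT pool. The difference of -0.56 is a 1.47-fold lower signal, or -32.0%. The robust SD of the differences among the 500 genes nearest in mean expression was 0.13, and 2 of these 500 differed from 0 by at least as much. Among the 7671 genes at or above the floor, Cyp2d9 was number 21 from the lower end.

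Cyp2d22, at the end of the cluster, differed the other way. Its log2 value was 7.14 in the Iah1-KO pool and 6.61 in the Iah1-WT pool, a difference of 0.54 and a 1.45-fold higher signal. The robust SD at its expression was 0.15, and 0 of the 500 nearest genes differed from 0 by as much. It was number 31 from the upper end of the 7671 genes. Relative to Cyp2d9, the Cyp2d22 signal was 2.13-fold higher in the Iah1-KO than in the Iah1-WT pool, a difference of 1.09 on the log2 scale.

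Cyp2d12 was also higher in the Iah1-KO pool, by less. Its log2 value was 7.87 in the Iah1-KO pool and 7.54 in the Iah1-WT pool, a difference of 0.32, where the robust SD was 0.13 and 6 of 500 neighbours in expression differed by as much. Cyp2d26 was at 9.61 in the Iah1-KO pool and 9.52 in the Iah1-WT pool. Its difference of 0.08 was within the robust SD of 0.10 at its level, and 185 of 500 genes differed by at least as much. Cyp2d26 thus gave nearly the same signal in both pools.

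The 4 dim members gave differences of either sign. Cyp2d40 was at 3.24 in the Iah1-KO and 3.90 in the Iah1-WT pool, and its difference of -0.65, numerically the furthest of the 8, compares with a robust SD of 0.27 and 10 of 500 genes as far from 0. Cyp2d34 was at 3.79 in the Iah1-KO and 3.46 in the Iah1-WT pool, a difference of 0.33 with 101 of 500 genes as far. Cyp2d10 (2.54 in the Iah1-KO, 2.60 in the Iah1-WT pool) and Cyp2d11 (2.48 and 2.47 in the same order) differed by -0.05 and 0.01. Cyp2d10 and Cyp2d11 are the genes whose start sequences above are nearest to that of Cyp2d9, and their probe sets stayed near the bottom of both arrays, above 18.6% and 17.2% of probe sets in the Iah1-KO pool and above 19.8% and 17.1% in the Iah1-WT pool.

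**Figure D2:**
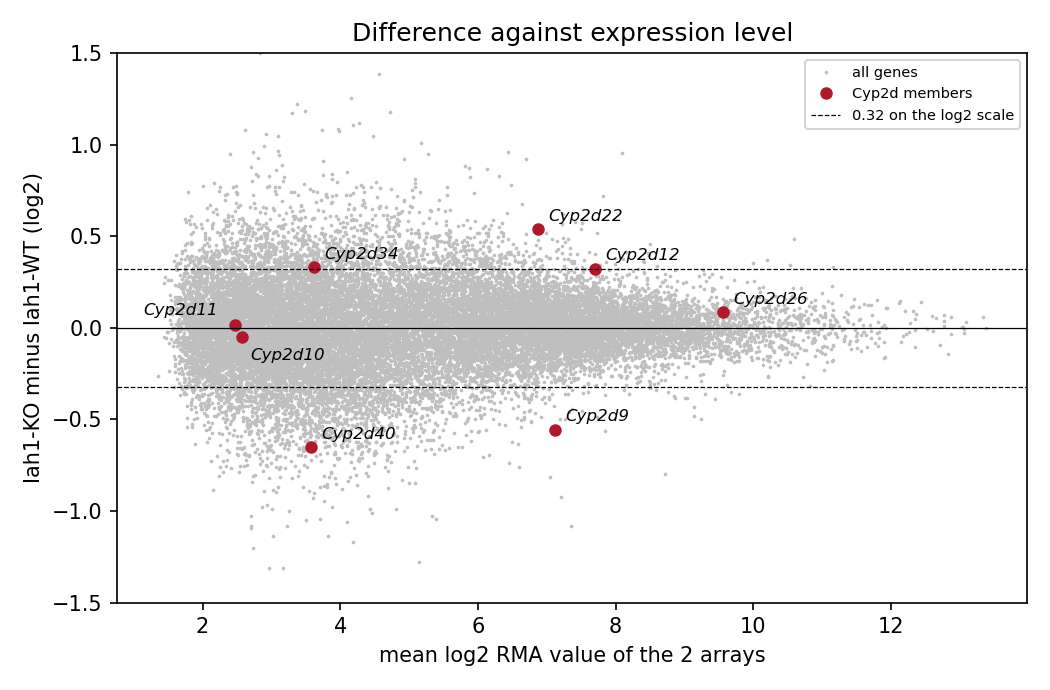
Difference Iah1-KO minus Iah1-WT on the log2 scale (y axis) against the mean log2 RMA value of the 2 arrays (x axis) for 22180 genes (grey) and the 8 Cyp2d genes (red), with dashed lines at the threshold of 0.32. Beyond the drawn range of 1.5 lie 5 genes. Cyp2d9 (-0.56) and Cyp2d22 (0.54) lie at the lower and upper edge of the genes of their expression, while Cyp2d34 and Cyp2d40 lie where the cloud is wide.

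Of the 4 members at or above the floor, 3 differed by at least 0.32 on the log2 scale, the threshold used for counts. Over all 7671 genes, 4.94% differed by that much in either direction, 230 of them higher and 149 lower. Cyp2d12 and Cyp2d22 were the 2 members higher and Cyp2d9 the 1 lower in the Iah1-KO pool. Since the family was chosen from this contrast, the shares are given side by side and nothing is read from them. Cyp2d12 lies on the threshold itself, and its difference was 0.31 both after centring on the median and after a loess correction on expression. At a threshold of 1.5-fold, 0 members were called in either direction, against 0.430% of all genes. The median difference of the 4 members was 0.20, against 0.01 for all 7671 genes, and over the 8 members it was 0.05, with 5 above and 3 below 0.

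A pair of transcribed pseudogenes of the cluster also had a probe set of its own. Cyp2d37-ps was at 4.95 in the Iah1-KO and 5.22 in the Iah1-WT pool, a difference of -0.27, and Cyp2d13 was at 2.82 in the Iah1-KO and 3.01 in the Iah1-WT pool, a difference of -0.19. Both are below the floor. Along the chromosome the differences took both signs, with Cyp2d22 above 0, Cyp2d9 below, Cyp2d12 and Cyp2d34 above, Cyp2d13, Cyp2d37-ps and Cyp2d40 below, and Cyp2d26 above. Probe sequences were not used here, and whether probes of one paralog also bind transcripts of another was not tested.

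The genes around the cluster did not differ by that much. Of the 10 protein-coding genes on each side and 1 within it, 18 had a probe set of their own and 10 were at or above the floor. Of these 9 were above 0 and 1 was below, with a median of 0.09. Among all 7671 genes at or above the floor, 52.4% were above 0 and the median was 0.01. Over the 18 neighbours with a probe set, 12 were above and 6 below 0. The threshold of 0.32 was passed by 0 of the 10 at or above the floor, against 4.94% of all 7671 genes. Pacsin2, a membrane-bending protein, was furthest at 0.25 (9.14 in the Iah1-KO, 8.89 in the Iah1-WT pool). Smdt1, a subunit of the mitochondrial calcium uniporter, differed by 0.16 and Cyb5r3, the cytochrome b5 reductase, by 0.10. Tcf20, the coding gene next to Cyp2d26, differed by 0.09. Ndufa6, next to Cyp2d22 and a subunit of respiratory complex I, differed by 0.08.

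**Figure D3:**
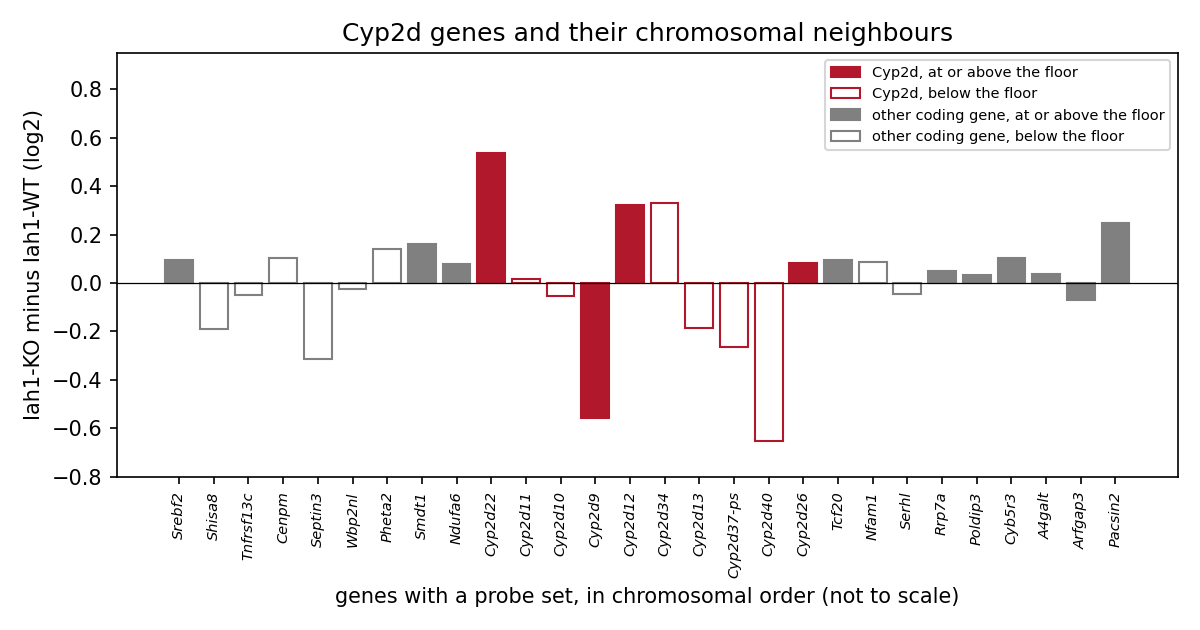
Difference Iah1-KO minus Iah1-WT on the log2 scale (bars, y axis) for the Cyp2d genes (red) and up to 10 protein-coding neighbours on each side (grey) that have a probe set, in chromosomal order (x axis, not to scale); filled bars reached the expression floor in at least 1 array. Cyp2d22 (0.54) and Cyp2d9 (-0.56) stand out among filled bars, and filled neighbours lie between -0.07 and 0.25.

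Other genes of family 2 at or above the floor differed by less than Cyp2d9 and Cyp2d22. Of 39 measured Cyp2 genes outside the 2D subfamily, 11 were at or above the floor. Of these 4 were above and 7 below 0, with a median of -0.11. Past the threshold of 0.32 were 0 of these 11, against 4.94% of all 7671 genes. Cyp2j9 was furthest (6.47 in the Iah1-KO, 6.73 in the Iah1-WT pool, -0.26). Cyp2a4, a steroid hydroxylase, differed by -0.16, Cyp2f2 by 0.16 and Cyp2j6 by -0.15. The 28 below the floor reached further, from -1.14 for Cyp2c38 to 0.83 for Cyp2c70. Among P450 subfamilies with at least 3 genes at or above the floor, the differences of Cyp2d spanned 1.09 on the log2 scale over 4 genes, those of Cyp2j 0.33 over 5 and those of Cyp4a 2.01 over 4, among them Cyp4a14 at -1.72. A wide span in Cyp2d follows from how the family was chosen.

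Redox partners, which feed electrons to P450 enzymes, were listed together with haem-binding accessory proteins and differed little. Of 8 genes at or above the floor, 6 were above and 2 below 0, with a median of 0.04. The threshold of 0.32 was passed by 0 of the 8, against 4.94% of all 7671 genes. Pgrmc2, a haem-binding membrane protein, differed by -0.25 and Cyb5r1 by 0.22, followed by Cyb5r3 at 0.10 and Fdx1, the ferredoxin of mitochondrial P450 enzymes, at 0.09. Cyb5a, cytochrome b5, was at 9.48 in the Iah1-KO and 9.50 in the Iah1-WT pool. Por, the P450 reductase, was not analysed here.

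Genes that make and break down haem, the cofactor of every P450 enzyme, formed another list. The membrane proteins Slc25a38, Slc25a39, Abcb6 and Tspo were in this list too and are part of its counts. Of 14 at or above the floor, 10 were above and 4 below 0, against 52.4% above 0 among all 7671 genes, and the median was 0.12. The haem oxygenase Hmox1 was the only one past the threshold (6.46 in the Iah1-KO, 6.10 in the Iah1-WT pool, 0.36). The share past it over all 7671 genes was 4.94%. Uros, a synthase of the pathway, differed by 0.26, the biliverdin reductase Blvra by 0.23 and Alas1, the first and rate-limiting enzyme of haem synthesis, by 0.20 (9.50 in the Iah1-KO, 9.30 in the Iah1-WT pool).

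Transcription factors and hormone receptors known to act on Cyp2 genes in liver or kidney were examined next. Signalling proteins such as the kinase Jak2 were in the same list and are counted with them. Of 17 at or above the floor, 10 were above and 7 below 0, with a median of 0.05. By at least 0.32, 2 were higher and 0 lower, against 4.94% of all 7671 genes in either direction. The repressor Bcl6, which is known in male mouse liver to oppose STAT5 at sex-dependent genes, was at 8.57 in the Iah1-KO and 7.62 in the Iah1-WT pool. Stat5a, which carries growth hormone and prolactin signals, was at 6.60 in the Iah1-KO and 6.08 in the Iah1-WT pool. Cebpa differed by 0.28, and the bile acid receptor gene Nr1h4 by -0.25 (8.72 in the Iah1-KO, 8.98 in the Iah1-WT pool). The part of these genes in the Cyp2d differences was not tested.

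Since Cyp2d9 is male-predominant in liver, genes known to depend on sex in kidney were set beside it. Of 12 genes higher in male kidney, 7 were above and 5 below 0, with a median of 0.04. In this list 1 was higher by at least 0.32 and 0 lower. Of all 7671 genes at or above the floor, 4.94% differed by that much in either direction. Gusb, the androgen-induced beta-glucuronidase, differed by 0.34, Cyp4a12b by 0.29, Cyp4a12a by 0.25 and Nudt19 by 0.15. Kap, the androgen-regulated protein of the proximal tubule, was at 12.61 in the Iah1-KO and 12.62 in the Iah1-WT pool. Of 4 genes higher in female kidney, 2 were above and 2 below 0, and 1 was lower by at least 0.32. They were Cyp4a14 at -1.72, Slc7a12 at 0.19, Cyp2a4 at -0.16 and Akr1c18 at 0.13, with a median of -0.01.

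**Figure D4:**
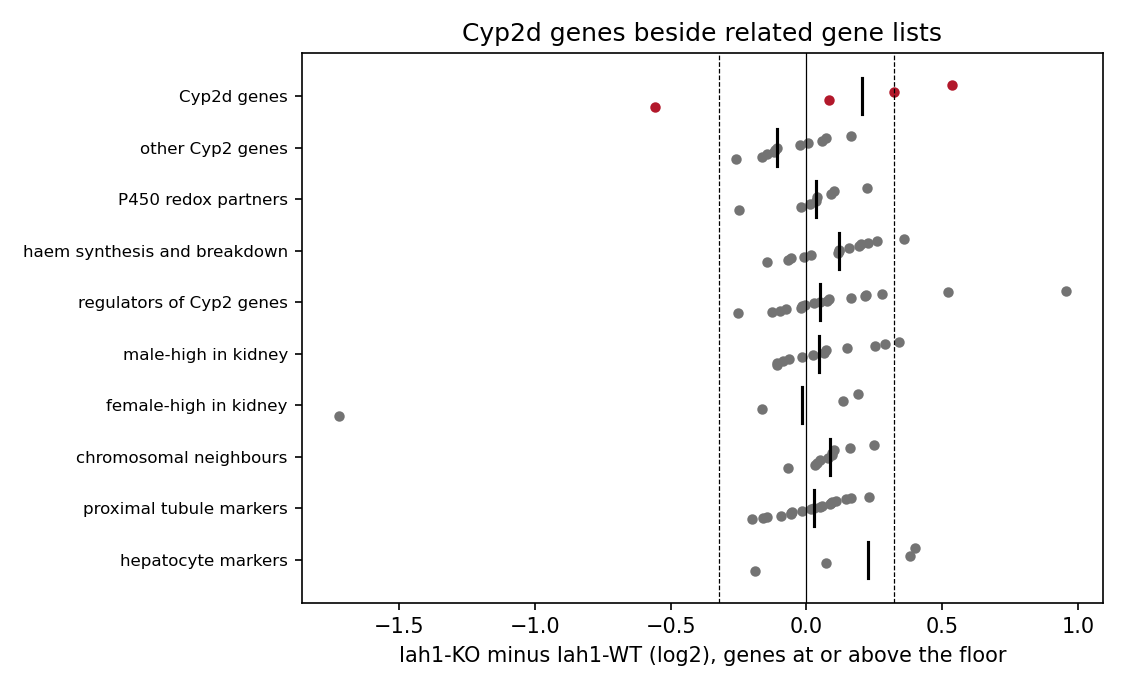
Difference Iah1-KO minus Iah1-WT on the log2 scale (x axis) of each gene at or above the floor (points) in the Cyp2d family (red, pseudogenes below the floor not drawn) and in related lists (grey, y axis), with the median of each list (black bar) and dashed lines at the threshold of 0.32. The Cyp2d points reach from -0.56 to 0.54, while other Cyp2 genes lie between -0.26 and 0.16. Redox partners, drawn together with haem-binding accessory proteins such as Pgrmc2, lie between -0.25 and 0.22. The haem list is drawn with the membrane proteins Slc25a38, Slc25a39, Abcb6 and Tspo.

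Markers checked the tissue and other possible sources of Cyp2d transcripts. All 19 measured proximal tubule markers were at or above the floor, 11 above and 8 below 0 and 0 past the threshold, with a median of 0.03, and their values averaged 11.02 in the Iah1-KO and 11.01 in the Iah1-WT pool. Slc22a8, an organic anion transporter, differed by 0.23, Gatm by -0.20, Hnf4a by 0.16 and Keg1 by -0.16. Markers of the other nephron segments and the glomerulus had 11 genes at or above the floor, 6 above and 5 below 0, 1 past the threshold in each direction and a median of 0.02, with Atp6v1g3 at -0.81 and Aqp2 at 0.49, followed by Slc4a1 at 0.18 and Calb1 at -0.14. Past the threshold in either direction were 4.94% of all 7671 genes at or above the floor. In pooled tissue, fewer cells of a type and less RNA per cell cannot be told apart.

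Hepatocyte markers were included because the liver is the main site of Cyp2d expression. Of 19 measured, 13 were above and 6 below 0, with a median difference of 0.18. The 4 at or above the floor included Alb at 0.40 (8.68 in the Iah1-KO, 8.28 in the Iah1-WT pool) and Apoa2 at 0.38. The other 2 were Ttr at -0.19 and Apob at 0.07, and the median of the 4 was 0.23. By at least 0.32, 2 were higher and 0 lower. Over all 7671 genes at or above the floor, 4.94% differed by that much in either direction and 52.4% were above 0. These shares leave out genes below the floor, where 15 of the 19 markers lie. The counts of 13 and 6 thus have no like share beside them. Of the 15 below the floor, Fgg was furthest at 0.63 (5.31 in the Iah1-KO, 4.68 in the Iah1-WT pool), followed by Ahsg at 0.57 (5.68 and 5.11 in the same order), Cyp2c29 at 0.34 and Cyp3a11 at -0.30. Apoa1 (4.19 and 3.94), Cyp1a2 (3.26 and 3.30) and Serpina1a (4.26 and 4.30) were also dim. The log2 of the summed signal of these 15 was 8.48 in the Iah1-KO and 8.29 in the Iah1-WT pool. Over all 19, where Ttr and Apob hold most of the signal, it was 12.14 in the Iah1-KO and 12.15 in the Iah1-WT pool. The part of hepatocyte RNA in the higher Cyp2d12 and Cyp2d22 values was not tested. Adrenal cortex markers had 0 of 7 genes at or above the floor.

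The genes whose pair of values lay nearest to those of Cyp2d9, by Euclidean distance over the 2 arrays, were Chic2 (6.80 in the Iah1-KO, 7.35 in the Iah1-WT pool), 3000002C10Rik (6.89 and 7.32 in the same order) and Trib2 (6.95 and 7.45). Nearest to Cyp2d22 were Rfng (7.11 in the Iah1-KO, 6.63 in the Iah1-WT pool), Snord13 (7.09 and 6.57 in the same order) and Epha1 (7.08 and 6.63). Likeness over 2 arrays is a description of these values only.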

How the data were processed

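Kidney RNA pools were measured on 2 Affymetrix arrays, 1 per genotype. What the authors deposited is 1 log2 value for each probe set and array. The tools named are RMA and Affymetrix Expression Console (version 1.3.0), per the submitters' processing notes. Quantile normalization hides a shift of most transcripts, and RMA compresses differences of dim probe sets. The table held 41345 probe sets, and GEO's platform annotation gave the symbols. A gene's value is its brightest probe set with 1 symbol. No source used here names the array's genome build, so RefSeq (GRCm38.p6) served for gene order and printed start sequences only. Neither scanner files nor detection calls were used.

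Differences are Iah1-KO minus Iah1-WT, computed in Python 3.11.15 with pandas 2.3.3, numpy 2.4.6, Biopython 1.88 and statsmodels 0.14.6. The floor was log2 6 in the higher array and the threshold for counts 0.32 on the log2 scale. The robust SD is the median absolute deviation times 1.4826 over the 500 genes nearest in mean expression. Alignments scored 1 for a match, -1 for a mismatch, -2 to open and -0.5 to extend a gap. With 1 array per genotype there is no test, and precision is limited by the number of arrays. Centring, the loess correction and the robust SD were tested on simulated data, and the other steps were not. The members and lists were chosen with earlier results of these data known. All Cyp2d genes were named, up to 4 genes per list with the largest differences, Iah1, and the 3 genes most like Cyp2d9 and Cyp2d22, the members at or above the floor furthest lower and higher. Genes named for their role or position (Cyb5a, Por, Kap, Ndufa6, Cyp2c38, Cyp2c70 and the dim hepatocyte markers) fall outside that rule and were picked with their values known. Alternatives were floors of log2 5, log2 7 or none, centring, a loess correction (span 0.3), the mean over probe sets and a fold of 1.5.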

Additional observations from a re-analysis of the deposited data

Results flagged for a closer look

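Probe set 17319700, which has no gene symbol and whose identifier falls between those of Cyp2d40 and Cyp2d26, was higher in the Iah1-KO than in the Iah1-WT pool by 0.62 on the log2 scale (4.12 in the Iah1-KO, 3.51 in the Iah1-WT pool). It was singled out because it lies outside the genes reported and exceeded its Iah1-WT value by more than 0.32. Among the 500 unnamed probe sets nearest in mean expression, 102 differed from 0 by at least as much, and the robust SD was 0.45. What it targets is not known here.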

How the results depend on the processing

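The direction of each of the 8 Cyp2d differences was the same after centring on the median and after the loess correction, and these 16 alternative values moved by less than the robust SD at that expression (largest shift, 0.04 on the log2 scale). Centring took 0.0085 from every difference, less than the smallest of the 8 (0.0149, Cyp2d11) and than each robust SD. It could thus change no direction and move no member by that SD. Each member has 1 probe set, so the mean over probe sets is the same value by construction. No probe set carried a listed Cyp2d symbol beside another, so adding shared probe sets could not give a value. The number of members higher by at least 0.32 on the log2 scale, 2, was 1 after centring, 1 after loess, 3 with no floor, where Cyp2d34 joins, and 0 at 1.5-fold. The number lower, 1, was 2 with no floor, where Cyp2d40 joins Cyp2d9, and 0 at 1.5-fold. Folds of 1.2 and 1.3, added after the data were seen because Cyp2d12 lies on the threshold, gave 2 and 1 members higher. Over all genes, the 230 higher and 149 lower became 484 and 392 with a floor of log2 5, 72 and 52 with log2 7, 1551 and 1777 with no floor, and 17 and 16 at 1.5-fold. Of 66 alternative list medians, 0 moved by more than the spread of the list's members and 5 changed sign. With no floor the Cyp2d list, pseudogenes included, had a median of -0.02 in place of 0.20, other Cyp2 genes 0.01 in place of -0.11 and female-high genes 0.14 in place of -0.01. Other nephron segments were at -0.04 with a floor of log2 7 and at -0.001 after loess. A floor changes which genes are counted. No paired analysis was possible because each genotype has 1 array. Signal over background limits Cyp2d10, Cyp2d11, Cyp2d34 and Cyp2d40.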

Other observations

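Other probe sets without a symbol stood next to Cyp2d9 in the order of identifiers. Probe set 17313581, just before it, was at 6.84 in the Iah1-KO and 7.29 in the Iah1-WT pool, a difference of -0.45, and 101 of the 500 unnamed probe sets nearest in expression differed from 0 by at least as much. Probe set 17313595, between Cyp2d9 and Cyp2d12, was at 3.05 in the Iah1-KO and 3.42 in the Iah1-WT pool, a difference of -0.37, with 171 of 500 as far. Both were lower in the Iah1-KO pool, as Cyp2d9 was, while Cyp2d12, also next to probe set 17313595, was higher by 0.32. What these probe sets target is not known here.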
